A study of Homo sapiens with 9 samples.

Results

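The genes described here are developmental transcription factors of the kind that Polycomb often holds silent, followed in esophageal carcinoma cells with lowered EZH2. A list of 56 such factors was matched by symbol to the Ensembl identifiers of the deposited count table, and 55 were found among its 57905 identifiers. LHX1 was not matched and is not analysed here. Of the 55 factors, 29 had enough counts to enter a test run over 13252 genes, and 26 did not. Both kinds are described, since a factor that stays silent when EZH2 is lowered is also a measurement. The matching used names and no measured value.

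Polycomb repressive complex 2 places methyl groups on lysine 27 of histone H3 through its catalytic subunit EZH2, and Polycomb repressive complex 1 reads that mark and compacts the chromatin. In stem cells and differentiated tissues the mark covers the CpG-rich promoters of transcription factors that specify other lineages, such as GATA, SOX, PAX, forkhead and homeodomain genes. In squamous epithelium TP63 and SOX2 are lineage factors of the basal layer, whereas CDX2, GATA4 and HNF4A belong to columnar and intestinal epithelium.

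RNA was sequenced from KYSE180, an established esophageal squamous carcinoma line that the series title calls KDM6A-deficient; KDM6A removes the histone mark that EZH2 writes. The 9 libraries formed 3 groups of 3: the EZH2 hairpins shEZH2#1 and shEZH2#3, and shluc, a hairpin against luciferase that serves as control. All cells were grown in RPMI-1640 with serum and had received 6 Gy of ionizing radiation. The genotype label reads EZH2 knockout in the hairpin groups and WT in shluc, while the series title speaks of a knockdown, so the groups were taken from the sample titles. A single line was used, no label says that replicates were separate cultures, and p-values therefore measure only the spread between these libraries. In bulk RNA, fewer cells that express a gene and less RNA per cell cannot be told apart.

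EZH2 checks the labels. In CPM, counts scaled to a common library size with TMM factors, EZH2 stood at 11.55, 11.35 and 7.28 in shEZH2#1, at 9.67, 11.0 and 9.12 in shEZH2#3, and at 18.4, 20.1 and 19.5 in shluc. Every hairpin library lay below every control library, and 52.2% and 51.4% of the control level remained with shEZH2#1 and shEZH2#3 (adjusted p = 0.00163 and 0.000433). The log2 fold changes of EZH2 were -0.94 and -0.96. After a correction for GC content and transcript length they were -0.74 and -0.58 (adjusted p = 0.00359 and 0.0112), a smaller fall with each hairpin. The loss was thus partial at the RNA level. Protein and the histone mark were not measured here.

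Library totals were 14958011 to 16946226 estimated counts in shEZH2#1, 18366510 to 21152006 in shEZH2#3 and 18563879 to 19508444 in shluc, and mitochondrial genes took 1.61 to 1.86%, 5.43 to 7.6% and 3.36 to 4.33% of them. The 2 most abundant genes with no symbol took 15.81 to 22.58% of counts in shEZH2#1, 5.97 to 11.59% in shEZH2#3 and 6.96 to 9.28% in shluc. Against the markers of the labelled type, KRT17, TRIM29, ITGB4, LAMB3 and PERP were abundant, and 9 of 15 squamous markers were tested. KRT5 (highest count 15), KRT14 (6), KRT6A (4), DSG3 (2) and DSC3 (2), which define basal squamous cells, were near 0. Summed squamous markers stood at 2610 to 3130 CPM in shEZH2#1, 3240 to 3830 in shEZH2#3 and 2040 to 2510 in shluc. The 10 columnar markers summed to 12.6 to 15.6, 28.3 to 33.8 and 13.0 to 16.9 CPM in the same groups, with CDX1 at 0 in all libraries. Fibroblast markers summed to 54.5 to 63.4, 79.7 to 118 and 59.6 to 68.4 CPM with COL1A2 and PDGFRA at 0, and immune markers to 16.4 to 20.3, 25.4 to 30.7 and 18.7 to 22.2 CPM with PTPRC and CD3E at 0. Endothelial markers summed to 7.97 to 8.29, 28.4 to 32.7 and 13.8 to 19.8 CPM with KDR at 0, and neural markers to 109 to 128, 49.8 to 59.9 and 50.0 to 71.1 CPM. Most of the columnar, endothelial and neural sums came from a single gene each, HNF4A, CDH5 and TUBB3, whose levels are given at the end. These sums therefore follow those genes and not the lists as a whole. CDX2, another columnar marker, was lower in both hairpin groups than in shluc. The part of these differences in the results on the factors was not tested.

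Promoters of the factors were rich in CpG. RefSeq windows of 300 bases on GRCh38.p14, 250 before to 50 after the start site, were found for 34 of the 56 factors. Their first windows held a median of 29 CpG, against 14 over the first windows of 27305 genes, and had a GC content of 67.8% against 58.3%. Those 27305 genes were not restricted to protein-coding ones, and a comparison with protein-coding genes alone was not made. The observed to expected CpG ratio was 0.83 against 0.58. The 21 windows of tested factors held a median of 30 CpG and the 13 windows of untested ones 21. On either strand, GGGCGG, which itself holds a CpG, occurred in 61.8% of the factors' windows against 44.6% of all, CCAAT in 52.9% against 35.7% and TATAAA in 2.94% against 12%.

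The 4 stretches below are shown because they belong to a factor called with both hairpins (PITX1) and to tested factors with large mean fold changes and a RefSeq window (TP63, MSX1 and SIX2). Capitals mark CpG, and each runs 5′ to 3′ on the strand of its gene and ends before the start site. PITX1 is on the minus strand at chr5:135034299-135034478, outside the exons but within the span of the gene in GENCODE 29, and its 180 bases held 25 CpG and 4 matches of GGGCGG.
PITX1: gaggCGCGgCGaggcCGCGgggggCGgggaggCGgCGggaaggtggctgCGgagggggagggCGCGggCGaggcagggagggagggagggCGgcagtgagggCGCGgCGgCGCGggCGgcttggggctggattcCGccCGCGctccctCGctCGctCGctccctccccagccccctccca
The 250 bases before the TP63 start, at chr3:189631139-189631388 on the plus strand, held 6 CpG at a GC content of 44.0%.
TP63: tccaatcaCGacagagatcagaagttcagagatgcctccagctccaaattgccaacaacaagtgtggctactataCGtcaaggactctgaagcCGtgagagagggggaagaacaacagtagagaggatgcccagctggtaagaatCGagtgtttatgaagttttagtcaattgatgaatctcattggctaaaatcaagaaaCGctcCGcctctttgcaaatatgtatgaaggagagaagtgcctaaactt
Those of MSX1, at chr4:4859415-4859664 on the plus strand, held 24 CpG and 2 matches each of GGGCGG and CCAAT.
MSX1: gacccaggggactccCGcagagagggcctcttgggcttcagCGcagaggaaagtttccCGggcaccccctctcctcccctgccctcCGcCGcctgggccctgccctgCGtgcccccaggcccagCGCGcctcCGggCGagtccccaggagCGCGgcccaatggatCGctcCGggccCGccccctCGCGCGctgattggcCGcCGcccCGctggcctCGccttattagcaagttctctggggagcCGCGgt
Those of SIX2, at chr2:45009453-45009702 on the minus strand, held 26 CpG at 65.6%.
SIX2: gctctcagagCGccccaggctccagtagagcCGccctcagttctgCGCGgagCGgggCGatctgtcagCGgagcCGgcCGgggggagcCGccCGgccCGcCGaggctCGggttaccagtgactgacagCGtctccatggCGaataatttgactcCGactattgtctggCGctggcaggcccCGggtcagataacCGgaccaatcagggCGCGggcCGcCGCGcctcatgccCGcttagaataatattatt
TP63 thus stood apart from the other 3 in the low CpG count of this window, which lies at the upstream end of the gene. Any start sites further into TP63 were not examined. CpG content is a feature of the sequence, and no methylation or histone mark was measured in these cells.

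Most of the 55 factors were low or silent in all groups. The 29 tested factors made up 52.7% of the 55, against 61.2% among 19263 protein-coding genes. Of the 55, 7 (12.7%) had no count in any library, against 19.3% of protein-coding genes, and 19 (34.5%) had at most 3 counts in every library, against 29.4%. Among the tested factors, levels per transcript length (TPM, mean of 9 libraries) ran from 179 for PITX1 to 0.187 for RUNX2. PITX1, BARX1 (121 TPM), TBX1 (75.7), SIX2 (50.2), GATA2 (42.5), IRX3 (25.8) and TBX3 (17.2) were the 7 most abundant, and the next, IRX5, stood at 8.52 TPM. These are factors of limb, stomach, pharynx, kidney, blood and neural tube development. All 55 factors together summed to 598 to 637 CPM in shEZH2#1, 652 to 877 in shEZH2#3 and 466 to 567 in shluc, so the 3 groups did not overlap in the summed level. The sum follows its most abundant members and not the set as a whole. In shEZH2#1, shEZH2#3 and shluc, PITX1 averaged 210, 231 and 142 CPM, BARX1 112, 80.6 and 54.7, and TBX1 39.1, 135 and 51.1. How often sums over other sets of genes fail to overlap was not examined.

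Most tested factors passed with neither hairpin, 19 of 29. With shEZH2#1, 2 of 29 rose (BARX1 and PITX1) and 1 fell (TBX3); among all 13252 genes tested, 11.2% rose and 7.89% fell, or 19.0% in all. With shEZH2#3, 7 rose (TBX1, SIX2, MSX1, OTX1, PITX1, PAX8 and BARX1) and 2 fell (SOX9 and RUNX1), against 24.4% and 19.8% of all genes, or 44.2%. For the mean of both hairpins 5 rose and 3 fell, against 19.6% and 16.6% (36.3% in all). In none of these contrasts did the share of factors called exceed that of all genes, and no test was made of the difference. Without adjustment, 7, 10 and 11 factors had p below 0.05 in these 3 contrasts. The shares of all genes below that unadjusted threshold were not computed. Median log2 fold changes of the factors were -0.02 with shEZH2#1 and 0.10 with shEZH2#3, against -0.07 and -0.01 for all genes. Among 4761 tested genes in the factors' interquartile range of transcript GC content (48.4 to 59.7%), the medians were 0.0 and 0.25. Of those genes, 11.1% rose and 9.54% fell with shEZH2#1, and 30.9% and 7.96% with shEZH2#3. The factors' medians thus lay above those of all genes and below those of this range, without a test of either difference.

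**Figure D1:**
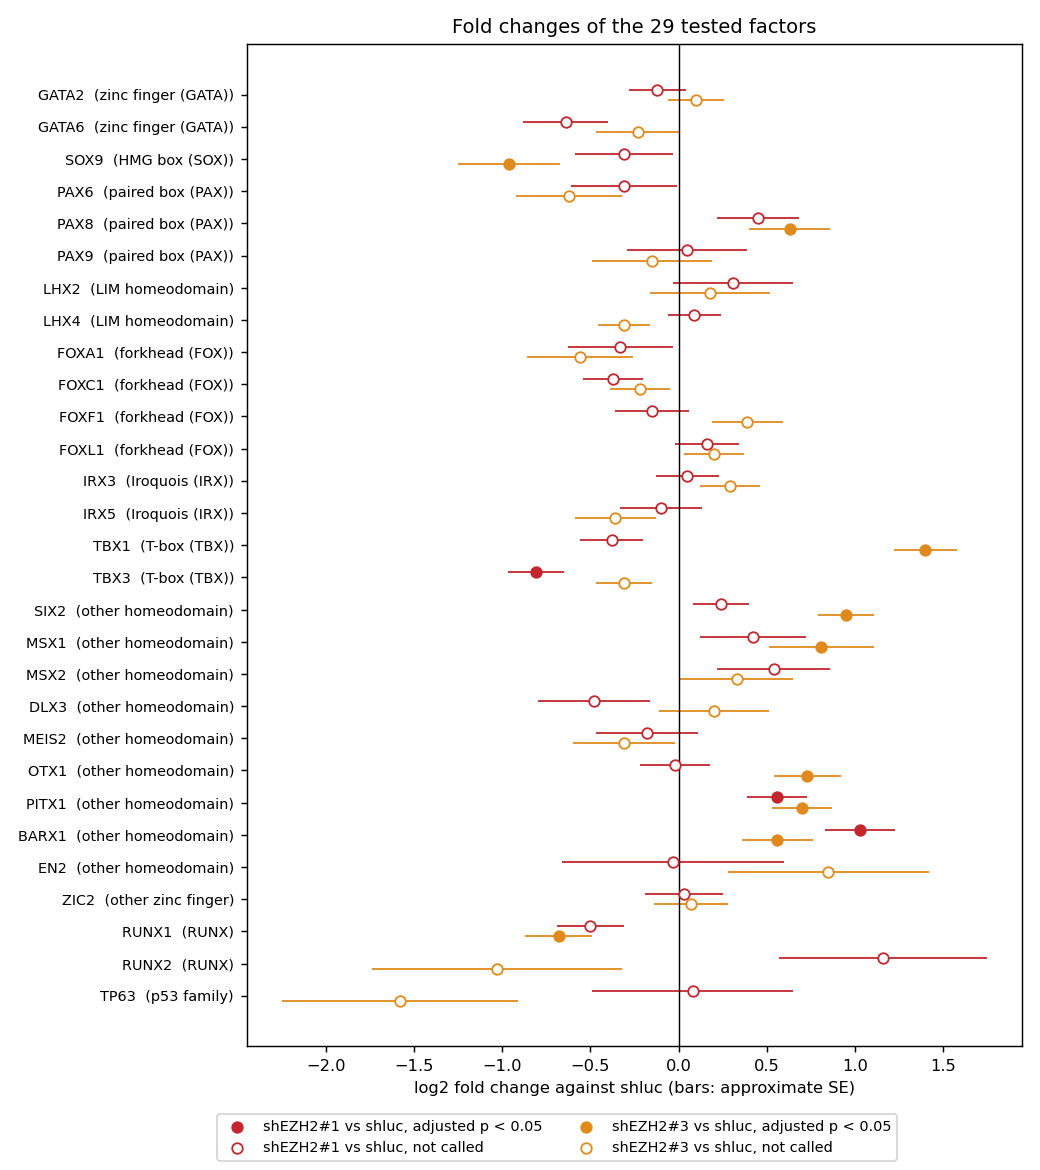
Log2 fold change against shluc (x axis, bars are approximate SE) of the 29 tested factors, in family order from top to bottom, for shEZH2#1 (red, upper point of each pair) and shEZH2#3 (orange, lower point). Filled points passed at adjusted p below 0.05: 3 with shEZH2#1 and 9 with shEZH2#3, and most factors lie within 1 log2 unit of 0.

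The libraries were also compared by whether the groups overlapped. In shEZH2#1, 3 factors had all 3 libraries above and 5 all 3 below the shluc libraries, against 18.3% and 18.9% of all genes. In shEZH2#3 the numbers were 10 above and 4 below, against 26.9% and 26.0%. Both hairpin groups were set against the same 3 shluc libraries, so the counts of the hairpins are not independent of each other. Called with both hairpins in the same direction were 2 factors, PITX1 and BARX1, both higher, where 7.99% of all genes were called higher and 3.26% lower with both (11.3% together). No factor was called in opposite directions, against 0.838% of all genes.

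PITX1, a paired-type homeodomain factor that specifies the hindlimb and pituitary, was the most abundant of the set (chromosome 5, 135027735 to 135034813, GRCh38). It stood at 210, 206 and 212 CPM in shEZH2#1, at 197, 259 and 238 in shEZH2#3, and at 161, 104 and 162 in shluc. All 6 hairpin libraries lay above the 3 controls, of which replicate 2 was the lowest. PITX1 rose 1.48-fold with shEZH2#1 (log2 fold change 0.56 ± 0.17, adjusted p = 0.0277) and 1.63-fold with shEZH2#3 (0.70 ± 0.17, adjusted p = 0.0033). With shEZH2#1, PITX1 missed the threshold when shluc replicate 2 was left out (0.37, adjusted p = 0.0904) or any 1 of the 3 shEZH2#1 libraries (adjusted p = 0.0536 to 0.0978). After a correction for GC content and transcript length, PITX1 had 0.07 and 0.02 (adjusted p = 0.653 and 0.905), so neither call held. Its antisense neighbour PITX1-AS1 averaged 0.315, 0.907 and 0.279 CPM in shEZH2#1, shEZH2#3 and shluc.

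BARX1, a homeodomain factor of stomach and tooth development, was also higher with both hairpins (chromosome 9, 93951622 to 93955372). Its levels were 114, 108 and 114 CPM in shEZH2#1, 63.4, 94.3 and 84.0 in shEZH2#3, and 55.3, 36.2 and 72.5 in shluc. The shEZH2#1 libraries lay above all others, while shEZH2#3 replicate 1 lay within the range of the controls. BARX1 rose 2.05-fold with shEZH2#1 (1.03 ± 0.20, adjusted p = 0.00163) and 1.47-fold with shEZH2#3 (0.56 ± 0.20, adjusted p = 0.029). The rise with shEZH2#1 passed in every fit that left out 1 library, and it passed once GC and length were corrected for (0.48, adjusted p = 0.011). With shEZH2#3, BARX1 missed the threshold when 1 of 4 libraries was left out, namely shluc replicate 2 (0.32, adjusted p = 0.146), shluc replicate 1 (0.57, adjusted p = 0.0697), shEZH2#3 replicate 2 (0.43, adjusted p = 0.125) or shEZH2#3 replicate 3 (0.53, adjusted p = 0.0674). It also missed it with upper quartile scaling (0.39, adjusted p = 0.0883) and in the fit of only those 2 groups (0.54, adjusted p = 0.0517), and turned to -0.17 after the correction (adjusted p = 0.312).

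**Figure D2:**
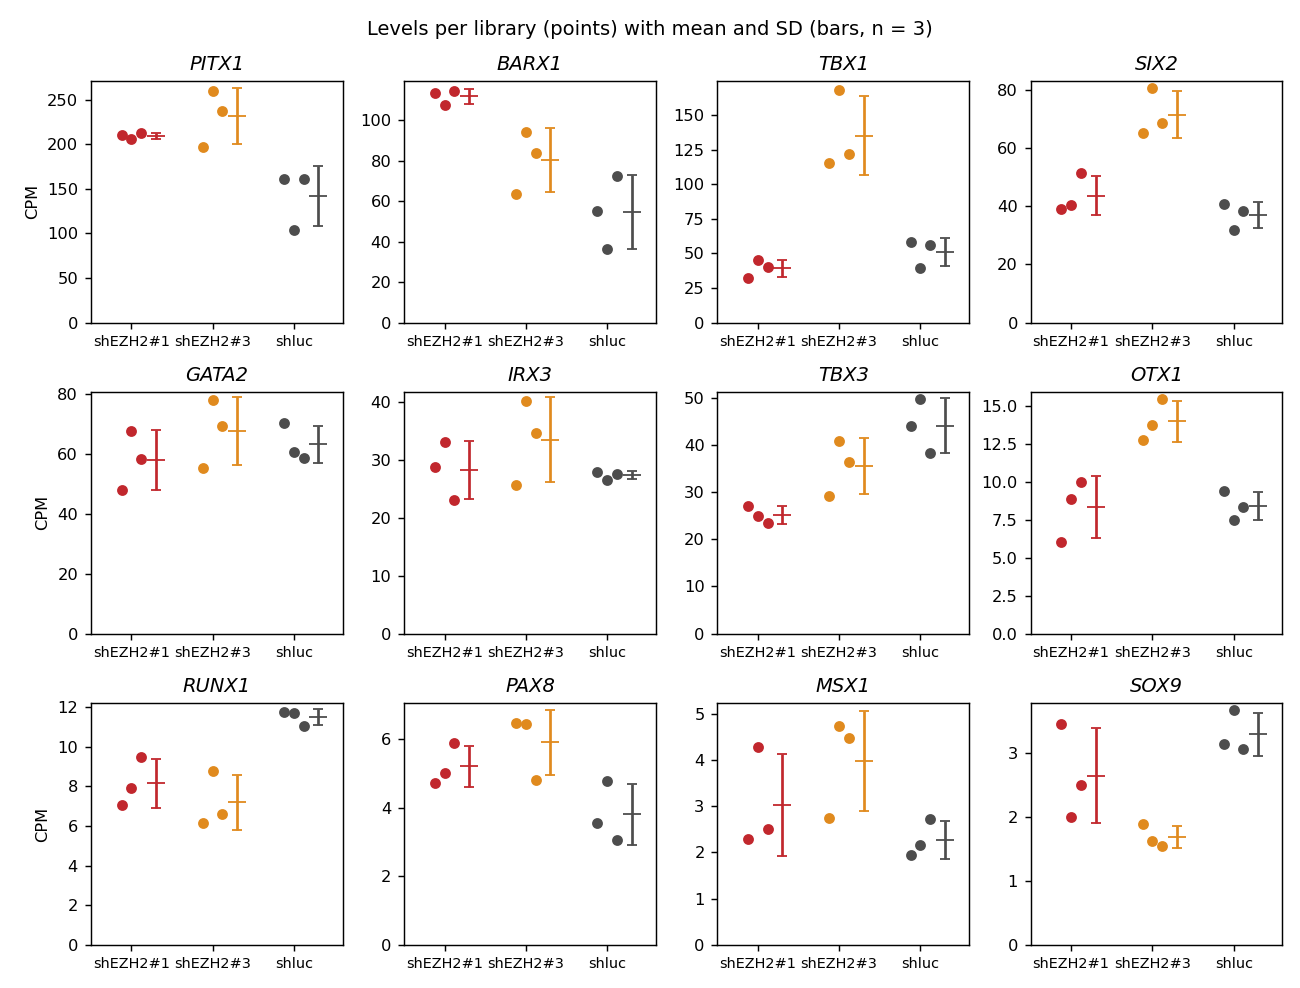
CPM per library (points) of 12 factors in shEZH2#1 (red), shEZH2#3 (orange) and shluc (grey), with the mean and SD of each group of 3 beside them; each y axis starts at 0 and has its own range. TBX1 and SIX2 are highest in shEZH2#3, BARX1 in shEZH2#1 and SOX9 and RUNX1 in shluc.

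TBX1, a T-box factor of the pharyngeal arches, differed between the hairpins with the lowest adjusted p of the set (chromosome 22, 19756703 to 19783593). It stood at 32.5, 45.0 and 39.8 CPM in shEZH2#1, at 116, 168 and 122 in shEZH2#3, and at 58.0, 39.3 and 56.01 in shluc. The shEZH2#3 libraries lay above all others, and the shEZH2#1 and shluc libraries overlapped. TBX1 rose 2.64-fold with shEZH2#3 (1.40 ± 0.18, adjusted p = 2.22e-05), had -0.38 ± 0.18 with shEZH2#1 (adjusted p = 0.152), and was lower in shEZH2#1 than in shEZH2#3 (-1.79 ± 0.19, adjusted p = 2.33e-06). With the GC and length correction TBX1 passed as higher with shEZH2#3 (0.66, adjusted p = 0.00064) and as lower with shEZH2#1 (-0.93, adjusted p = 0.000106). Its mean over both hairpins turned to -0.14. When shluc replicate 2 was left out, TBX1 was likewise called lower with shEZH2#1 (-0.55, adjusted p = 0.0472). TBX1 overlaps GNB1L on the opposite strand, which averaged 29.4, 28.2 and 13.9 CPM in shEZH2#1, shEZH2#3 and shluc; the strand setting of the counting is not given in the sources used here, so reads of the pair may be mixed. In all, 15 of the 29 tested factors overlap another gene.

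TBX3, a T-box factor of limb and mammary development that represses senescence genes, was the factor that fell with shEZH2#1 (chromosome 12, 114670254 to 114684164). It had 27.2, 24.9 and 23.4 CPM in shEZH2#1, 29.2, 40.9 and 36.4 in shEZH2#3, and 44.1, 49.8 and 38.2 in shluc. All shEZH2#1 libraries were below all others, and shEZH2#3 and shluc overlapped. TBX3 fell to 0.571 of the control level with shEZH2#1 (-0.81 ± 0.16, adjusted p = 0.00208) while its value for shEZH2#3 was -0.31 ± 0.16 (adjusted p = 0.116). The hairpins differed (-0.50 ± 0.16, adjusted p = 0.0302), a call that was lost without any 1 of the 3 shEZH2#1 libraries or without shEZH2#3 replicate 2 or 3 (adjusted p up to 0.162), with upper quartile scaling (-0.33, adjusted p = 0.129) and once GC and length were corrected for (-0.30, adjusted p = 0.0827). Against shluc, the corrected TBX3 passed as lower with each hairpin (-0.71, adjusted p = 0.00154, and -0.40, adjusted p = 0.0267). TBX2, its close paralog, had at most 3 counts in any library.

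SIX2, which keeps nephron progenitors undifferentiated, rose with shEZH2#3 (chromosome 2, 45005161 to 45009430). Its levels were 39.1, 40.5 and 51.5 CPM in shEZH2#1, 65.2, 80.7 and 68.7 in shEZH2#3, and 40.7, 31.9 and 38.4 in shluc. The shEZH2#3 libraries lay above all others. The rise was 1.93-fold with shEZH2#3 (0.95 ± 0.16, adjusted p = 0.000161), against 0.24 ± 0.16 with shEZH2#1 (adjusted p = 0.309), and the hairpins differed (-0.71 ± 0.16, adjusted p = 0.00277). With the correction SIX2 had 0.33 with shEZH2#3 (adjusted p = 0.0313).

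OTX1, a head and brain homeodomain factor, was likewise highest in shEZH2#3, at a lower level (chromosome 2, 63050057 to 63057836). It had 6.05, 8.88 and 10.0 CPM in shEZH2#1, 12.8, 13.7 and 15.4 in shEZH2#3, and 9.35, 7.50 and 8.34 in shluc. The shEZH2#3 libraries lay above all others, and shEZH2#1 and shluc overlapped. OTX1 rose 1.66-fold with shEZH2#3 (0.73 ± 0.19, adjusted p = 0.00486) while its value for shEZH2#1 was -0.02 ± 0.20 (adjusted p = 0.96). The difference between the hairpins was -0.75 ± 0.19 (adjusted p = 0.00787), and it missed the threshold without shEZH2#1 replicate 1 (-0.56, adjusted p = 0.0685). After the correction the fold change with shEZH2#3 was 0.31 (adjusted p = 0.157) and that between the hairpins -0.52 (adjusted p = 0.0238).

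Among the remaining homeodomain factors, MSX1, a partner of BMP signalling in tooth and limb, rose with shEZH2#3 at a low level. It had 2.30, 4.29 and 2.50 CPM in shEZH2#1, 2.75, 4.74 and 4.47 in shEZH2#3, and 1.94, 2.15 and 2.73 in shluc. The shEZH2#3 libraries were above the controls by a narrow margin. For shEZH2#3 the log2 fold change was 0.81 ± 0.30 (adjusted p = 0.0334), and for shEZH2#1 it was 0.42 ± 0.30 (adjusted p = 0.353). The call was lost without shluc replicate 1 or 2 or shEZH2#3 replicate 2 or 3 (adjusted p = 0.0996 to 0.126), with upper quartile scaling (0.63, adjusted p = 0.0964) and after the correction (0.22, adjusted p = 0.613). Its paralog MSX2 had 0.54 ± 0.32 and 0.33 ± 0.32 (adjusted p = 0.245 and 0.4). DLX3, which acts in epidermal differentiation, had -0.48 ± 0.32 and 0.20 ± 0.31, MEIS2, a HOX cofactor, -0.18 ± 0.29 and -0.31 ± 0.29, and EN2, of the midbrain and hindbrain, -0.03 ± 0.63 and 0.85 ± 0.57; none of these passed with a hairpin. In all, 5 of the 9 tested homeodomain factors outside the PAX, LIM and Iroquois families rose with shEZH2#3 and none fell, with a median of 0.70, against 24.4% and 19.8% of all genes with a median of -0.01. After the correction 1 of the 9 was higher, none was lower and the median was 0.28. Of all genes, 12.3% were then higher and 12.1% lower with shEZH2#3, with a median of -0.01.

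In the paired box family 1 of 3 tested factors passed. PAX8, of thyroid and kidney, had 4.72, 5.01 and 5.88 CPM in shEZH2#1, 6.46, 6.42 and 4.81 in shEZH2#3, and 3.55, 4.79 and 3.07 in shluc. The lowest shEZH2#3 library exceeded the highest control by a few hundredths of a CPM. PAX8 rose with shEZH2#3 (0.63 ± 0.23, adjusted p = 0.0318), and its value for shEZH2#1 was 0.45 ± 0.23 (adjusted p = 0.188). That call was lost without shluc replicate 1 or 3, shEZH2#3 replicate 1 or 2 or shEZH2#1 replicate 1 (adjusted p = 0.0551 to 0.115), with upper quartile scaling (0.45, adjusted p = 0.132), without a filter (0.59, adjusted p = 0.0668), in the fit of only those 2 groups (0.60, adjusted p = 0.0659) and after the correction (0.23, adjusted p = 0.472). Its antisense neighbour PAX8-AS1 averaged 6.74, 7.07 and 6.07 CPM. PAX6, the eye factor, had -0.31 ± 0.30 and -0.62 ± 0.30 (adjusted p = 0.498 and 0.0961), and PAX9, of the pharyngeal pouches and esophageal epithelium, 0.05 ± 0.34 and -0.15 ± 0.34.

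SOX9, the single tested SOX factor, acts in cartilage and in epithelial progenitors and fell with shEZH2#3 (chromosome 17, 72121020 to 72126420). It had 3.45, 1.99 and 2.50 CPM in shEZH2#1, 1.89, 1.62 and 1.55 in shEZH2#3, and 3.13, 3.67 and 3.07 in shluc. All shEZH2#3 libraries lay below all others. For shEZH2#3 the log2 fold change was -0.96 ± 0.29 (adjusted p = 0.0109), and for shEZH2#1 it was -0.31 ± 0.28 (adjusted p = 0.457). SOX9 passed without each library in turn (adjusted p = 0.00991 to 0.0396) and after the correction (-0.97, adjusted p = 0.0121).

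RUNX1, a core factor of blood development that is also active in epithelia, fell with shEZH2#3 (chromosome 21, 34787801 to 36004667). Its levels were 7.08, 7.91 and 9.48 CPM in shEZH2#1, 6.18, 8.79 and 6.63 in shEZH2#3, and 11.75, 11.72 and 11.1 in shluc. All 6 hairpin libraries were below the controls. Its log2 fold changes were -0.50 ± 0.19 for shEZH2#1 and -0.68 ± 0.19 for shEZH2#3 (adjusted p = 0.0651 and 0.00694). Corrected for GC and length they were -0.22 and -0.37 (adjusted p = 0.428 and 0.142). RUNX2, the bone factor, was close to the filter, with 14, 11 and 13 counts in shEZH2#1, 4, 2 and 3 in shEZH2#3, and 7, 4 and 13 in shluc. It passed between the hairpins, higher in shEZH2#1 (2.19 ± 0.67, adjusted p = 0.0202), and not against shluc (1.16 ± 0.59 and -1.03 ± 0.71, adjusted p = 0.169 and 0.231). Without 1 of 4 libraries, shEZH2#1 replicate 1 or 3 or shEZH2#3 replicate 2 or 3, that call was lost (adjusted p = 0.0629 to 0.0847).

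TP63, the master factor of stratified epithelium, was barely detected in a line labelled squamous. It had 17, 11 and 5 counts in shEZH2#1, 2, 7 and 2 in shEZH2#3, and 11, 22 and 12 in shluc. All shEZH2#3 libraries were below the controls. The fold change with shEZH2#3 was -1.58 ± 0.67 (adjusted p = 0.0557), and with shEZH2#1 0.08 ± 0.57 (adjusted p = 0.939). TP63 passed as lower with shEZH2#3 by limma-voom (-1.69, adjusted p = 0.0453), with upper quartile scaling (-1.76, adjusted p = 0.0354), in the fit of only those 2 groups (-1.61, adjusted p = 0.047) and when shEZH2#3 replicate 2 was left out (-2.48, adjusted p = 0.0273). Corrected for GC and length it had -1.03 (adjusted p = 0.249). SOX2, the other squamous lineage factor, had 0 counts in shEZH2#1, 2 in shEZH2#3 and 7 in shluc, summed over each group.

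In the GATA family GATA2, of blood and endothelium, was abundant and passed with neither hairpin (chromosome 3, 128479427 to 128493185). It had 47.9, 67.7 and 58.2 CPM in shEZH2#1, 55.4, 78.1 and 69.2 in shEZH2#3, and 70.3, 60.5 and 58.7 in shluc, and the 3 groups overlapped. The fold changes were -0.12 ± 0.16 and 0.10 ± 0.16 (adjusted p = 0.638 and 0.648). Once GC and length were corrected for, GATA2 passed as lower with both (-0.39, adjusted p = 0.0387, and -0.44, adjusted p = 0.018). GATA2-AS1, on the opposite strand, averaged 18.6, 19.5 and 14.2 CPM and rose with shEZH2#3 (0.46 ± 0.18, adjusted p = 0.0403), without holding after the correction (0.01, adjusted p = 0.982). GATA6, an endoderm factor, averaged 3.26 ± 0.87, 4.34 ± 0.405 and 5.08 ± 0.819 CPM (SD, n = 3 each) in shEZH2#1, shEZH2#3 and shluc, and its fold changes of -0.64 ± 0.24 and -0.23 ± 0.24 did not pass.

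No forkhead, Iroquois or LIM factor passed with a hairpin. IRX3, a neural tube and heart factor, had 28.8, 33.0 and 23.0 CPM in shEZH2#1, 25.6, 40.1 and 34.5 in shEZH2#3, and 27.96, 26.6 and 27.5 in shluc (0.05 ± 0.18 and 0.29 ± 0.17, adjusted p = 0.875 and 0.181). LHX4, of the pituitary and motor neurons, had 15.8, 14.7 and 17.8 CPM in shEZH2#1, 12.6, 11.8 and 12.3 in shEZH2#3, and 15.4, 15.3 and 14.6 in shluc. All 3 shEZH2#3 libraries of LHX4 were below the others, by a small step (-0.31 ± 0.15, adjusted p = 0.111, against 0.09 ± 0.15 with shEZH2#1). FOXC1, of mesenchyme and eye, had -0.37 ± 0.17 and -0.22 ± 0.17 (adjusted p = 0.145 and 0.31), and passed as lower with both after the correction (-0.47 and -0.58, adjusted p = 0.0381 and 0.00914). IRX5 had -0.10 ± 0.23 and -0.36 ± 0.23, with the correction -0.89 for shEZH2#3 (adjusted p = 0.0112). The pioneer factor FOXA1 had -0.33 ± 0.30 and -0.56 ± 0.30, the gut mesenchyme factors FOXF1 and FOXL1 -0.15 ± 0.21 and 0.39 ± 0.20, and 0.16 ± 0.18 and 0.20 ± 0.17, LHX2 0.31 ± 0.34 and 0.18 ± 0.34, and the forebrain zinc finger factor ZIC2 0.03 ± 0.22 and 0.07 ± 0.21.

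Between the hairpins, 5 of 29 factors passed: RUNX2 was higher in shEZH2#1, and TBX1, TBX3, SIX2 and OTX1 were lower. Of all genes tested, 9.46% were higher and 15.5% lower in shEZH2#1 than in shEZH2#3 (25.0% in all). An unadjusted p below 0.05 was found for 11 factors, and the share of all genes below it was not computed. All shEZH2#1 libraries lay above all shEZH2#3 libraries for 4 factors and below them for 7, against 19.7% and 23.2% of all genes. The median log2 fold change of the factors was -0.04, against 0.01 for all genes. A difference between the hairpins in EZH2 itself was not detected (10.1 ± 2.41 CPM in shEZH2#1 and 9.94 ± 0.989 in shEZH2#3, SD, n = 3 each).

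The factors below the filter stayed close to 0. No count in any library was found for SOX11, SOX17, IRX1, DLX5, OLIG2, NEUROD1 and HAND1, which specify neurons, endoderm, oligodendrocytes, bone and heart among others. A highest count of 1 was found for GATA3, ISL1, IRX4 and WT1, and one of 2 to 4 for GATA4, SOX2, SOX7, SOX8, PAX2, FOXA2, IRX2, TBX2, NKX2-5 and BARX2. Higher single counts were found for CDX2 (12), NKX2-1 (9), MEIS1 (8), ASCL2 (6) and TWIST1 (6). The limit that a count of 0 allows, 3 counts over a group of 3 libraries, corresponded to 0.063 CPM in shEZH2#1, 0.0501 in shEZH2#3 and 0.0526 in shluc, for counting error only. At this depth no activation above those levels was detectable for the 7 factors without a count.

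Summed over the 26 untested factors, there were 53 raw counts in shEZH2#1, 48 in shEZH2#3 and 121 in shluc. CDX2 and ASCL2 held 28 and 14 of those in shluc. With TMM factors, 1 count was worth 0.0604 to 0.0735 CPM in shEZH2#1, 0.0552 to 0.0624 in shEZH2#3 and 0.0399 to 0.0479 in shluc. On raw counts, 3 factors had a higher sum in shEZH2#1 than in shluc (GATA4, NKX2-1 and TWIST1), and 5 in shEZH2#3 (GATA3, SOX7, PAX2, IRX2 and TWIST1). By mean CPM with TMM factors, SOX7, MEIS1 and BARX2 were higher in shEZH2#1 as well. They averaged 0.0245, 0.259 and 0.0403 CPM there, against 0.0133, 0.248 and 0.0286 in shluc. The share over all genes below the filter was not computed. CDX2, the intestinal homeodomain factor, had 1, 2 and 2 counts in shEZH2#1, 0 in each shEZH2#3 library, and 10, 6 and 12 in shluc, so that no hairpin library reached a control library. In the fit without a filter CDX2 passed as lower with shEZH2#3 (log2 fold change -6.0, adjusted p = 0.00201). With shEZH2#1 that fit gave -1.94 (adjusted p = 0.284). By raw library totals, without TMM factors, CDX2 was 9.81-fold lower with shEZH2#3 when 3 counts stood in for the 0 of that group. The counts in shluc were taken as exact there, so the value is not a lower bound. The ratio of CDX2 with shEZH2#1 was 0.214 by the same totals. TMM factors would make these falls smaller, since a count was worth fewer CPM in shluc. ASCL2, a factor of intestinal stem cells, had 0, 1 and 0 counts in shEZH2#1, 0 in each shEZH2#3 library, and 6, 3 and 5 in shluc. Without a filter ASCL2 passed as lower with shEZH2#3 (-5.02, adjusted p = 0.0418). With 3 counts in place of 0 its fall was 4.90-fold by raw totals, again not a lower bound. GATA4, of heart and endoderm, went the other way in shEZH2#1, with 1, 4 and 1 counts there and 0 in all shEZH2#3 and shluc libraries. With 3 counts in place of the 0 in shluc, GATA4 was 2.39-fold higher by raw totals, which is not a lower bound either. It did not pass in the fit without a filter (4.28, adjusted p = 0.173).

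**Figure D3:**
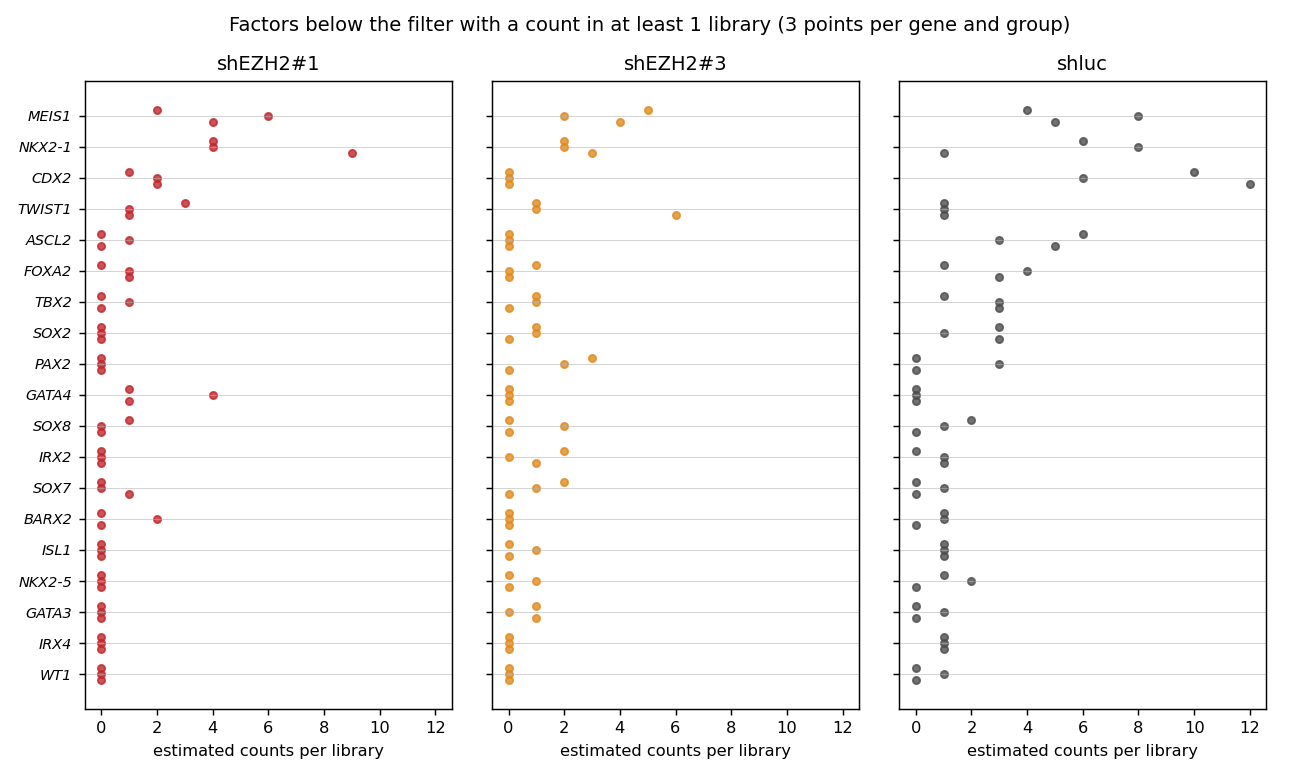
Estimated counts per library (x axis, 1 point per library) of the 19 untested factors with a count in at least 1 library, in shEZH2#1 (red), shEZH2#3 (orange) and shluc (grey); the 7 factors at 0 throughout are left out. CDX2 and ASCL2 have their highest counts in shluc (12 and 6) and are at 0 in shEZH2#3, and no factor exceeds 12.

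Fold changes of the factors varied with the GC content of their transcripts. Libraries differed in this trend by group: the rank correlation across genes of a library's deviation from the mean with GC content was -0.25 to 0.26 in shEZH2#1, 0.39 to 0.65 in shEZH2#3 and -0.69 to -0.40 in shluc, as a description over genes that are not independent. The factors had a median GC content of 55.3%, against 50.3% over all tested genes. Across the 29 factors the rank correlation of GC content with the fold change was 0.20 for shEZH2#1 and 0.68 for shEZH2#3, against 0.47 and 0.69 over all tested genes. All 6 factors with a GC content of at least 60% had a fold change above 0 with shEZH2#3, and 7 of 8 with less than 50% had one below 0. No label gives a batch, so the trend and the groups cannot be told apart.

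**Figure D4:**
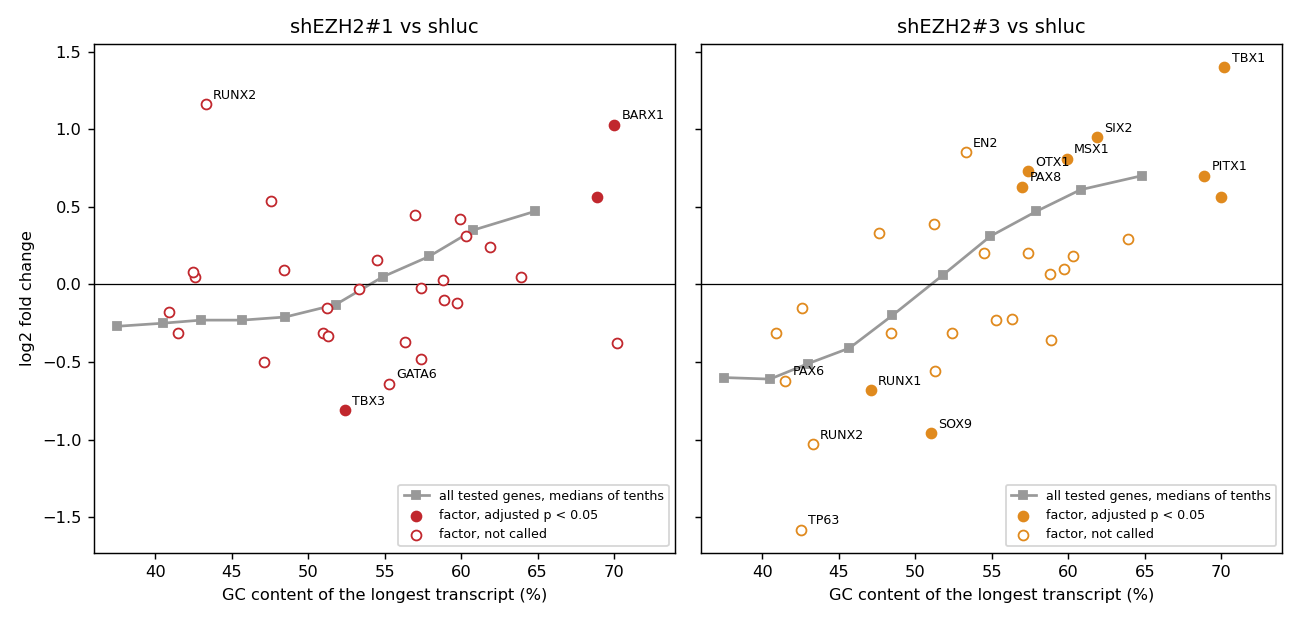
Log2 fold change (y axis) against the GC content of the longest transcript in percent (x axis) for the 29 tested factors, with shEZH2#1 at left and shEZH2#3 at right; filled points passed at adjusted p below 0.05, and grey squares are the medians of all tested genes in 10 bins of equal size by GC content. With shEZH2#3 the median is -0.60 in the bin of lowest GC content and 0.70 in that of the highest, and the 7 factors called higher all have a GC content above 55.3%, the median of the set.

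With a smooth of each library on GC content and length as an offset, the calls leaned the other way. In shEZH2#1, 1 factor was higher (BARX1) and 4 were lower (GATA2, FOXC1, TBX1 and TBX3), against 8.04% and 10.2% of all genes (18.2% in all). In shEZH2#3, 2 were higher (TBX1 and SIX2) and 5 lower (GATA2, SOX9, FOXC1, IRX5 and TBX3), against 12.3% and 12.1% (24.4% in all). For the mean of both hairpins none was higher and 5 were lower, against 8.57% and 10.1% (18.7% in all), and between the hairpins 4 were higher and 3 lower in shEZH2#1, against 13.0% and 14.9% (27.9% in all). GATA2, FOXC1 and TBX3 were lower with both, against 3.29% of all genes lower with both, and none was higher with both, against 2.59% (5.88% together). TBX1 was called lower with shEZH2#1 and higher with shEZH2#3, against 1.71% of all genes called in opposite directions. TBX1 and SIX2 with shEZH2#3, BARX1 with shEZH2#1, TBX3 with shEZH2#1 and SOX9 with shEZH2#3 passed in the same direction with and without the correction. The median log2 fold changes of the factors became -0.04 and -0.17.

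**Figure D5:**
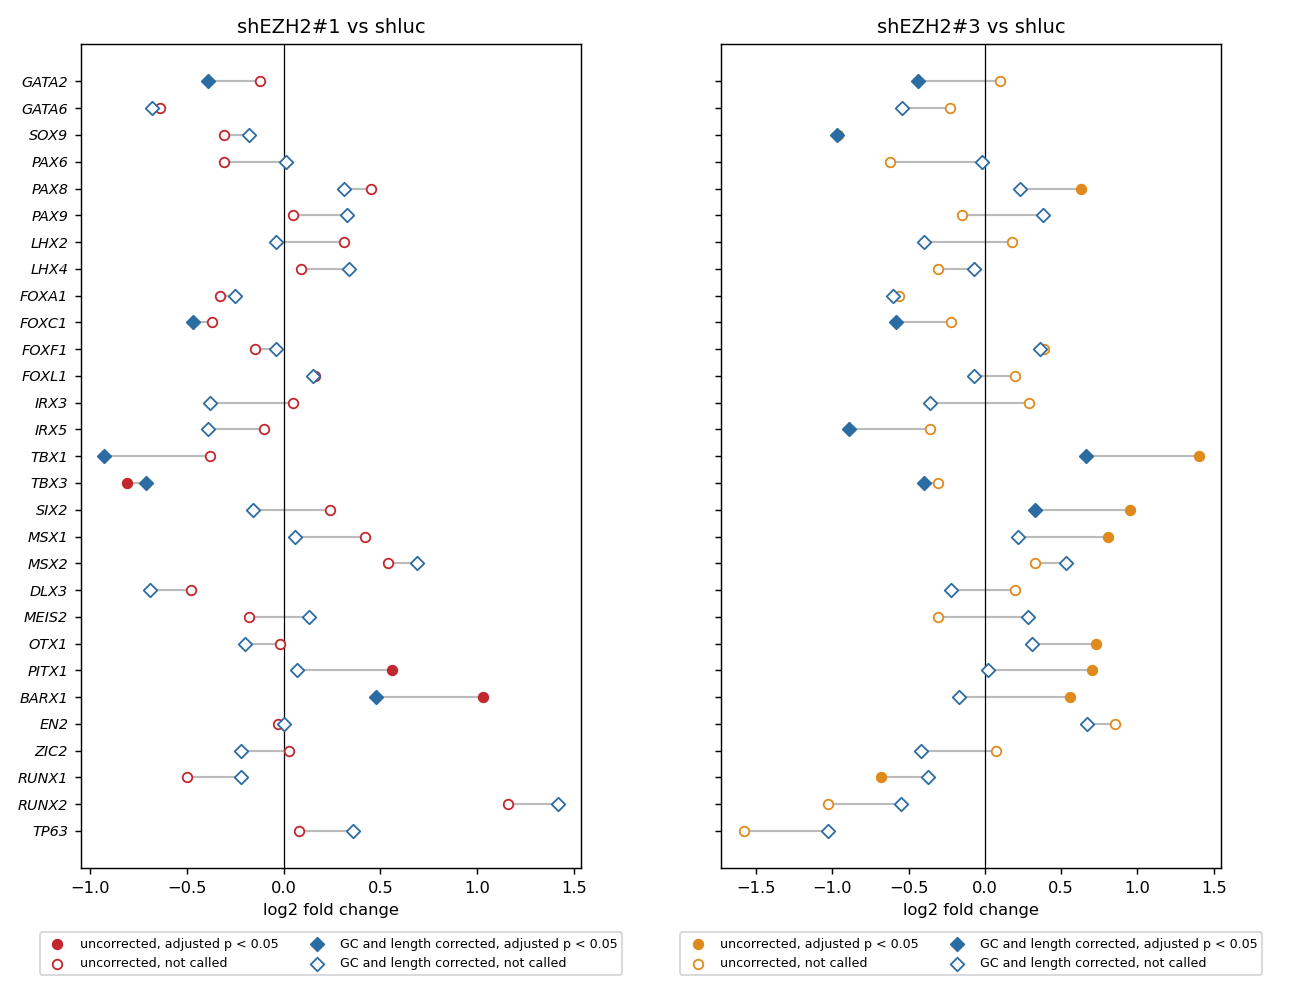
Log2 fold change against shluc (x axis) of the 29 tested factors without (circles) and with (blue diamonds) the GC and length correction, shEZH2#1 at left and shEZH2#3 at right; filled marks passed at adjusted p below 0.05, and a line joins the values of a factor. PITX1 moves to 0.07 and 0.02, and GATA2, FOXC1 and TBX3 are called lower with both hairpins after the correction.

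Paralogs of the same families that are not among the 56 factors were set beside them. Of 80 found, 28 were tested and 28 had no count in any library. With shEZH2#1, 1 rose and 1 fell (median -0.12), against 11.2% and 7.89% of all genes, and with shEZH2#3, 12 rose and 2 fell (median 0.36), against 24.4% and 19.8% of all genes; the tested paralogs had a median GC content of 60.5%. Corrected for GC and length, 7 paralogs were lower and 0 higher with shEZH2#1, while with shEZH2#3 the numbers were 3 lower and 2 higher. Of all genes, 10.2% were then lower and 8.04% higher with shEZH2#1, and 12.1% and 12.3% with shEZH2#3. MEIS3 rose with both hairpins (0.76 ± 0.17 and 0.89 ± 0.17) and GATA5 with shEZH2#3 (1.17 ± 0.26), neither passing after the correction. DLX1 (-2.27 ± 0.76) and DLX2 (-1.36 ± 0.45), forebrain and craniofacial factors that lie side by side, fell with shEZH2#3, also after the correction, and averaged 0.157 ± 0.0964 and 0.618 ± 0.214 CPM in shEZH2#3, against 0.779 ± 0.238 and 1.60 ± 0.332 CPM in shluc (SD, n = 3 each). Of 20 noncoding neighbours found, 5 were tested, and 1, GATA2-AS1, passed with a hairpin. After the correction FENDRR passed in its place, higher with shEZH2#3 (0.62, adjusted p = 0.00637).

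Genes of the Polycomb complexes are given beside the shares of all genes, 11.2% higher and 7.89% lower with shEZH2#1 and 24.4% and 19.8% with shEZH2#3; no test set the complexes against other genes. Of 12 tested subunits and cofactors of complex 2, none rose, 2 fell with shEZH2#1 and 5 with shEZH2#3. EZH2 and the histone chaperone RBBP4 fell with both (RBBP4 -0.60 ± 0.15 and -0.62 ± 0.15), and EED, which reads the mark (-0.85 ± 0.21), and JARID2, which targets the complex (-0.58 ± 0.20), with shEZH2#3. After the correction, RBBP4 with shEZH2#3 and JARID2 no longer passed (adjusted p = 0.938 and 0.0543). Of 21 tested genes of complex 1, shEZH2#1 had 2 that rose and 1 that fell, and shEZH2#3 had 4 that rose and 2 that fell. CBX2, a chromodomain reader, rose with both (0.48 ± 0.15 and 0.52 ± 0.15), as did L3MBTL2 (0.48 ± 0.16 and 0.64 ± 0.16), the ubiquitin ligase RING1 rose with shEZH2#3 (0.71 ± 0.19), and RYBP, of the variant complexes, fell with shEZH2#3 (-1.05 ± 0.24). Of these, L3MBTL2 with shEZH2#1 passed after the correction (0.38, adjusted p = 0.0245).

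Other squamous transcription factors and basal genes were followed for comparison with TP63 and SOX2, against the same shares of all genes as for the Polycomb complexes. Of 22 squamous factors found, 15 were tested: shEZH2#1 had 1 that rose and 2 that fell, and shEZH2#3 had 4 that rose and 1 that fell. ELF3 rose with shEZH2#3 (0.85 ± 0.16) and TEAD4 with both (0.68 ± 0.15 and 0.59 ± 0.15), NFE2L2 fell with both (-0.55 ± 0.19 and -0.99 ± 0.19), and TFAP2A fell with shEZH2#1 (-0.60 ± 0.15). After the correction TEAD4 did not pass with shEZH2#3 (-0.01, adjusted p = 0.954), nor NFE2L2 with shEZH2#1 (adjusted p = 0.132). Of 17 tested basal genes of 25 found, 3 rose with shEZH2#1 and none fell, and 6 rose and 3 fell with shEZH2#3. The hemidesmosome integrin ITGB4 rose with both (0.80 ± 0.15 and 1.23 ± 0.16), while its partner ITGA6 fell with shEZH2#3 (-1.11 ± 0.20). KRT15 rose with shEZH2#1 (2.04 ± 0.27), and TRIM29 rose with shEZH2#3 (0.91 ± 0.16). These calls of ITGB4, ITGA6, KRT15 and TRIM29 passed after the correction as well.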

How the data were processed

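Polyadenylated RNA of 9 KYSE180 libraries was sequenced after a strand-marking preparation, per the labels' protocols. The submitters' processing notes name fastp, HISAT2, StringTie and the build GRCh38 (hg38), without versions. How reads were counted (annotation, strand, multiple hits) is not given in the sources used here. Values deposited by the authors are estimated counts, 1 per Ensembl identifier and not normalized, of which 14.65 to 18.55% above 0 carry decimals. All 9 single-library files held the same values as the table of the series. Libraries of a group differed beyond counting noise (chi-square per degree of freedom 15.7 to 84.01), so each counted as 1 sample.

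Symbols, positions, length and GC content came from a naming table and GENCODE 29. Rounded estimated counts entered edgeR 4.0.16 (R 4.3.3): TMM scaling, filterByExpr on the 3 groups, a quasi-likelihood fit of all 9 libraries with a mean per group, and Benjamini-Hochberg adjustment over 13252 genes at 0.05 (common dispersion 0.0315). Printed adjusted p-values are from this test unless another is named. The SE is approximate, the unshrunken log2 fold change divided by the square root of F. The procedure was tested on simulated data. TPM divides counts by the longest transcript's length.

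The factors, the other lists and the tests were chosen with earlier results of these data known. Values per library were given for factors called with both hairpins, the 6 largest called changes per hairpin, those called between hairpins, the 8 most abundant and the untested ones; up to 4 genes of each other list were named by mean fold change. Alternatives were other scalings (RLE, upper quartile), tools (DESeq2 1.42.0 and limma-voom from limma 3.58.1) and filters, fits restricted to a pair of groups, a block for the replicate number, an offset for GC and length (span 0.3), leaving out the 2 most abundant unnamed genes, requiring a fold of 2, and leaving out each library.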

Additional observations from a re-analysis of the deposited data

Results flagged for a closer look

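TBX1 and OTX1 responded differently to the hairpins. TBX1 had a log2 fold change of -1.79 between shEZH2#1 and shEZH2#3 (edgeR quasi-likelihood test, adjusted p = 2.33e-06), and OTX1 one of -0.75 (adjusted p = 0.00787). Against shluc both rose with shEZH2#3 and had values below 0 with shEZH2#1 that did not pass the test. GNB1L, which overlaps TBX1 on the opposite strand, averaged 29.4 CPM in shEZH2#1, 28.2 in shEZH2#3 and 13.9 in shluc, so it did not share the order of TBX1 across the groups.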

How the results depend on the processing

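RLE scaling, DESeq2, limma-voom and the stricter filter left the 5 counts of called factors (3 with shEZH2#1, 9 with shEZH2#3, 8 for the mean, 5 between hairpins and 2 with both) within 1.5 times. Upper quartile scaling moved the median of all genes with shEZH2#3 to -0.18 (-0.01 with TMM). It gave 10 factors with shEZH2#3, 4 higher and 6 lower, and 7 between hairpins. Of all 13252 genes under that scaling, 2421 were higher and 3720 lower with shEZH2#3. Between the hairpins 2207 were higher and 1404 lower in shEZH2#1. Without a filter the mean had 9, 4 higher and 5 lower, where 2495 of all 22364 genes were higher and 2459 lower. Fits of only the groups compared left 1 with both, and could not be made for the mean. The GC and length correction gave 5, 7, 5, 7 and 3, and with the replicate block added 5, 6, 5, 6 and 3. It turned GATA2 with shEZH2#3 to -0.44, BARX1 to -0.17 (-0.18 with the block), TEAD4 to -0.01, TBX1 for the mean to -0.14 and RBBP4 between hairpins to -0.27. With that block SIX2 with shEZH2#3 had 0.33 (adjusted p = 0.0515). A minimum fold of 2 left 1, 1, 0, 2 and 0. Without the 2 most abundant unnamed genes the counts were 3, 9, 7, 6 and 2. Leaving out 1 library gave 2 to 3, 7 to 9, 5 to 9, 2 to 7 and 0 to 2 (0 without shluc replicate 2); calls that passed without each library in turn were 2 of 3 with shEZH2#1, 6 of 9 with shEZH2#3 and 2 of 5 between hairpins. The cause of these shifts was not tested. The replicate number as a block gave 3, 9, 7, 5 and 2. Deviations from the group means had correlations of -0.12 to 0.08 between libraries of the same number. For libraries of different numbers they were -0.16 to 0.16. No pairing by number was seen, which 3 libraries per group cannot exclude. Depth limits the 26 untested factors, where 1 count was worth 0.0473 to 0.0669 CPM.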

Other observations

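Some lineage genes outside the set, picked from the other lists by the size of their mean fold change, moved more than most of the factors. Other members of those lists did not move with them. In the columnar list CDX1 was at 0 in all libraries, and CDX2 was lower in every hairpin library than in shluc. HNF4A, a liver and intestinal factor, averaged 10.9 ± 0.852 CPM in shEZH2#1, 27.9 ± 2.83 in shEZH2#3 and 10.3 ± 1.36 in shluc (SD, n = 3 each; log2 fold change 1.43 ± 0.16 with shEZH2#3, adjusted p = 7.73e-06), and it passed after the GC and length correction (1.35). CDH5, an endothelial cadherin, averaged 7.55 ± 0.401, 30.0 ± 2.57 and 17.4 ± 3.47 CPM, lower with shEZH2#1 (-1.20 ± 0.18) and higher with shEZH2#3 (0.78 ± 0.17). KRT15, a basal keratin, averaged 6.34 ± 0.944, 0.928 ± 0.181 and 1.54 ± 0.158 CPM, and TUBB3, a neuronal tubulin, 115 ± 9.7, 53.9 ± 5.08 and 61.8 ± 10.9 CPM in the same order of groups.

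FENDRR, a noncoding RNA 1.4 kb from FOXF1 on the opposite strand, averaged 5.87 ± 0.218 CPM in shEZH2#1, 9.15 ± 0.94 in shEZH2#3 and 7.24 ± 1.01 in shluc, and it differed between the hairpins (-0.64 ± 0.19, adjusted p = 0.0178; -0.71 after the correction, adjusted p = 0.00261). FOXF1 averaged 5.49 ± 1.27, 7.93 ± 0.381 and 6.06 ± 0.817 CPM (-0.54 ± 0.21 between the hairpins, adjusted p = 0.0645). This pair was singled out after its values were seen.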
